A study of Mus musculus with 15 samples.

Results

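*Thbd* and *Gpnmb* encode 2 cell surface glycoproteins whose transcripts were scarce in B lineage cells cultured with vehicle and more abundant in cells cultured with the EZH2 inhibitor GSK343. They are 2 of the 21761 genes in the table, and both are among the 11299 genes expressed highly enough to be tested. Both genes were chosen by their values in these same libraries, namely a low level with DMSO and a higher level with GSK343, so their GSK343 effects are given below as a description with no test. RNA-seq was performed on 5 groups of 3 libraries from female C57BL/6J mice of 6 to 9 weeks. Naive B cells (nB) were CD43- splenic B cells taken without culture. The other groups came from B cells cultured for 3 days with the stimuli LPS, IL2, and IL5 and with either DMSO, the vehicle, or 2 µM GSK343. From each culture, activated B cells (actB) were sorted as B220+GL7+CD138- and plasmablasts (Pb) as CD138+. For Pb cultured with GSK343, the labels name Il6 where those of the other cultured libraries name Il5. If these labels hold, every GSK343 effect in Pb, and every difference from actB, also compares IL6 with IL5, and the agents cannot be told apart.

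EZH2 is the catalytic subunit of Polycomb repressive complex PRC2 and deposits H3K27me3, a histone mark of silenced genes. Thrombomodulin, the product of *Thbd*, is best known as the endothelial receptor that binds thrombin and turns it from a clotting enzyme into an activator of protein C, and it is also found on some myeloid cells. GPNMB is a transmembrane glycoprotein of melanosomes and lysosomes that is abundant in melanocytes, osteoclasts, and lipid-laden macrophages, and its ectodomain is shed by ADAM10. Neither gene is a classical marker of B cells or plasma cells.

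In mm9, *Thbd* (Entrez gene 21824) lies on the minus strand at chr2:148230207-148233924, with 1 annotated transcript of 1 exon and 3718 bases. *Gpnmb* (Entrez gene 93695) lies on the plus strand at chr6:48986517-49020928, with 2 annotated transcripts of 11 exons each. The transcript that ends at 49008181 has 3798 exon bases, the length deposited for the gene. No other annotated gene overlaps either locus. The 250 bases upstream of the *Gpnmb* start are shown because the MiT/TFE factors known to control this gene bind certain E-boxes (general form CANNTG). The forms they bind include CACGTG and CATGTG. The bases are from RefSeq, GRCm38.p6, plus strand, chr6:49036268-49036517. Capitals mark the only match to CANNTG, which begins 58 bases before the start. It reads CAAATG and is neither of these forms.
Gpnmb: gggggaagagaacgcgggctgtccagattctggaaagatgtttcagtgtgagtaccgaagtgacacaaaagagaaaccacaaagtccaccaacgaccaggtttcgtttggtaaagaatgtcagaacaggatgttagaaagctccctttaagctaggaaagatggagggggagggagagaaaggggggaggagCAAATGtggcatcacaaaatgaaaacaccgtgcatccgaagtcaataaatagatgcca

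Matches on both strands were counted. An E-box is found in 66.2% of 32851 RefSeq promoter windows of this length. The more specific E-box CACGTG (6.02% of windows) and the M-box core CATGTG (12.3%), both of which also match CANNTG, had no match, nor did the AP-1 motif TGANTCA (6.75%). An AATAAATA element begins 15 bases before the start and is found in 2.40% of windows. The window holds 7 CG dinucleotides against a median of 6, and 57% of windows hold as few or fewer.

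Between 19421830 and 26307413 reads were counted per library. Levels are given as RPKM (reads per kilobase of exon per 1000000 reads counted), with the whole reads recovered from the table. Replicates 1 and 2 of nB differed by less than sampling noise, with a chi-square per degree of freedom of 0.00947, and were counted as 1 sample, which leaves 14 libraries. Replicate 2 of the actB groups stood apart from replicates 1 and 3 of its own group, with values of 16.7 to 29.7. In Pb, pairs with replicate 2 had smaller values of 7.62 to 11.4. These were still above those of replicates 1 and 3, at 3.57 with DMSO and 3.68 with GSK343. All 7 B cell markers, among them *Cd79a* and *Pax5*, had a mean of at least 1 RPKM in every group. The summed level of 7 plasmablast markers was 3140 to 3470 RPKM in Pb against 512 to 688 in actB.

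*Thbd* had the lowest levels in actB with DMSO and the highest in Pb with GSK343. In nB, 89, 89, and 77 reads were counted in the 3 deposited columns, or 1.04, 1.04, and 0.905 RPKM. The actB libraries held 14, 14, and 16 reads with DMSO (0.159, 0.156, and 0.177 RPKM) and 73, 74, and 69 reads with GSK343 (0.746, 0.807, and 0.789 RPKM). All 3 actB libraries with GSK343 lay above all 3 with DMSO and below both distinct nB libraries. In Pb, 142, 104, and 179 reads were counted with DMSO (1.96, 1.37, and 2.31 RPKM), and 1153, 689, and 987 with GSK343 (13.6, 9.26, and 13.7 RPKM). The lowest Pb library with GSK343 was thus well above the highest with DMSO, and replicate 2 was the lowest library in both Pb groups. Mean levels were 0.164 ± 0.0115 RPKM (SD, n = 3) in actB with DMSO, 0.781 ± 0.0313 (n = 3) in actB with GSK343, 0.972 ± 0.0951 (n = 2) in nB, 1.88 ± 0.478 (n = 3) in Pb with DMSO, and 12.2 ± 2.52 (n = 3) in Pb with GSK343. No neighbours in this order had overlapping libraries.

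*Gpnmb* followed the same order in the cultured groups but was lowest in nB. The nB columns held 8, 8, and 9 reads (0.0914, 0.0914, and 0.103 RPKM). In actB, 16, 14, and 17 reads were counted with DMSO (0.178, 0.153, and 0.185 RPKM) and 65, 48, and 52 with GSK343 (0.651, 0.513, and 0.582 RPKM). The 2 actB groups did not overlap, and neither reached 1 RPKM. In Pb, *Gpnmb* had 131, 113, and 143 reads with DMSO (1.77, 1.46, and 1.81 RPKM) and 658, 515, and 510 with GSK343 (7.59, 6.78, and 6.91 RPKM). The Pb libraries with GSK343 were again all above those with DMSO. Mean levels ran from 0.0974 ± 0.00856 RPKM (n = 2) in nB to 0.172 ± 0.0168 (n = 3) in actB with DMSO, 0.582 ± 0.0690 (n = 3) in actB with GSK343, 1.68 ± 0.195 (n = 3) in Pb with DMSO, and 7.09 ± 0.435 (n = 3) in Pb with GSK343, and again no neighbours overlapped. In bulk RNA, a higher level in all cells and a larger share of cells with the transcript cannot be told apart.

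**Figure D1:**
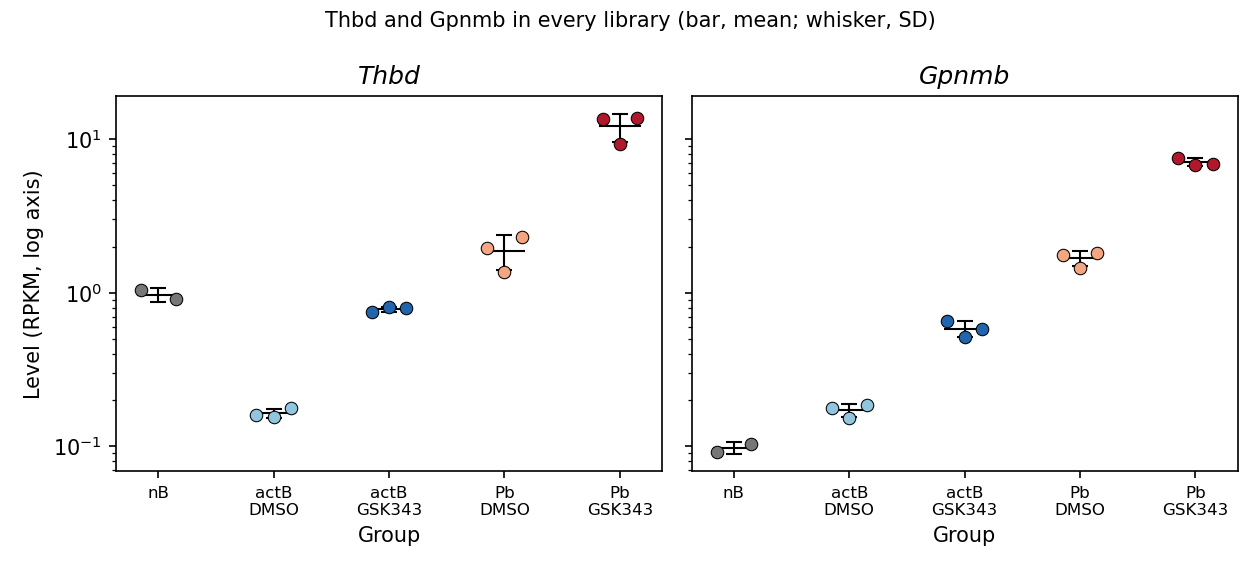
Level of *Thbd* (left) and *Gpnmb* (right) in RPKM on a log axis in each library of the 5 groups, with nB replicates 1 and 2 averaged. Horizontal bars are means and whiskers are SD. Pb with GSK343 holds the highest libraries for both genes, at 9.26 to 13.7 RPKM for *Thbd* and 6.78 to 7.59 RPKM for *Gpnmb*, and nB is the lowest group for *Gpnmb* but not for *Thbd*.

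The balance between the transcripts therefore differed between nB and the cultured groups. The level of *Thbd* was 8.74 to 11.4 times that of *Gpnmb* in the nB libraries, but 0.893 to 1.02 times in actB with DMSO, 1.15 to 1.57 times in actB with GSK343, 0.940 to 1.28 times in Pb with DMSO, and 1.37 to 1.98 times in Pb with GSK343. The 3 libraries with GSK343 lay above the 3 with DMSO in each cell type, while the ranges of actB and Pb overlapped with either treatment. In nB, the ratio rests on at most 9 reads of *Gpnmb* per library. The nB libraries also held transcripts of other cells. Of 20 macrophage and monocyte markers, 17 had a mean of at least 1 RPKM in nB, with *Lyz2* at 166 RPKM and *Csf1r* at 9.16 and 16.8 RPKM in the distinct libraries, as had all 10 dendritic cell markers and all 10 T and NK cell markers. Of 10 endothelial cell and platelet markers, 3 reached that mean in nB (*Pecam1*, *Pf4*, and *Ppbp*). *Cdh5*, *Kdr*, *Tek*, *Tie1*, and *Vwf* did not. Of 10 neutrophil and mast cell markers 3 did, as did all 4 red cell markers present, with *Hbb-b1* at 29.0 and 129 RPKM. In the cultured libraries, *Lyz2* was at most 1.13 RPKM and *Csf1r* at most 0.0484. The part of other cells in the nB level of *Thbd* was not tested.

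With GSK343 the levels were several times those with DMSO in both cell types. For *Thbd*, the ratio of mean RPM (reads per 1000000 reads counted) was 4.76 in actB (4.70, 5.17, and 4.45 for replicates 1, 2, and 3) and 6.47 in Pb (6.92, 6.77, and 5.91). For *Gpnmb*, it was 3.39 in actB (3.66, 3.36, and 3.16) and 4.22 in Pb (4.28, 4.66, and 3.82). On the log2(RPKM + 0.25) scale fitted with limma, the change of *Thbd* was 1.32 (SE 0.169) in actB and 2.55 (SE 0.169) in Pb, ranking 24 and 3 from the highest of the 11299 genes. The change of *Gpnmb* was 0.98 (SE 0.100) in actB and 1.93 (SE 0.100) in Pb, with ranks of 88 and 9. Over all genes, 8.20% were called higher with GSK343 in actB and 2.16% lower, and 7.90% were called higher and 5.0% lower in Pb (limma, adjusted p under 0.05). The share called higher in actB depended on the scaling, with 6.11% higher and 3.27% lower after median scaling, 5.36% and 3.35% after quantile normalization, and 6.79% and 3.43% by edgeR. These contrasts chose *Thbd* and *Gpnmb*, so nothing is read from their ranks.

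**Figure D2:**
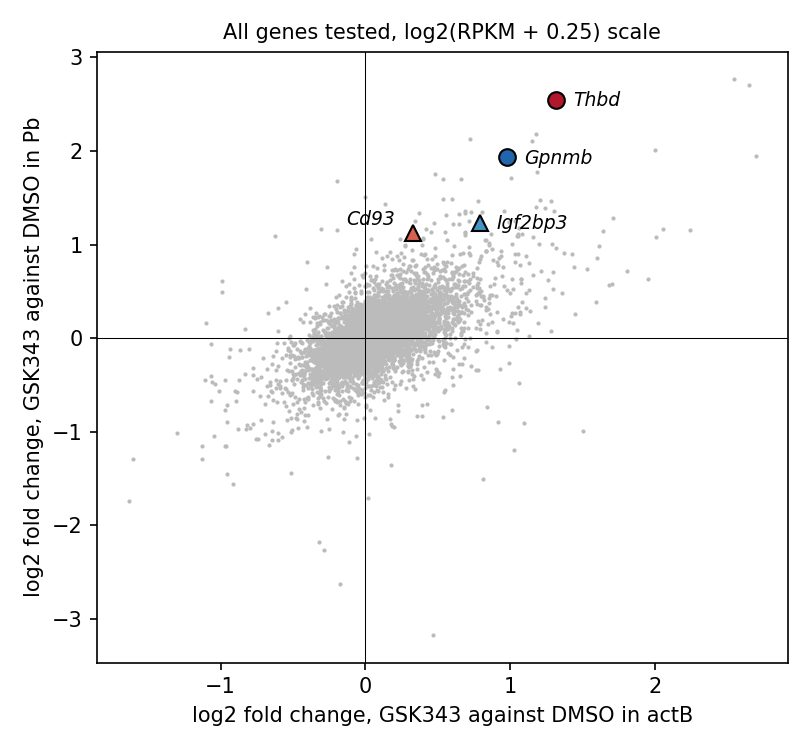
log2 fold change of each of the 11299 genes tested with GSK343 against DMSO in actB (x axis) and in Pb (y axis), on the log2(RPKM + 0.25) scale. Circles mark *Thbd* (1.32 in actB and 2.55 in Pb) and *Gpnmb* (0.98 and 1.93), and triangles mark their neighbours *Cd93* and *Igf2bp3*.

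How far the effect differed between the cell types depended on the scale. On log2(RPKM + 0.25), the change in Pb exceeded that in actB by 1.23 (SE 0.239) for *Thbd* and by 0.95 (SE 0.142) for *Gpnmb*. In edgeR on the recovered reads, which adds no such constant, the changes of *Thbd* were 2.21 in actB and 2.68 in Pb, a difference of 0.48 on the log2 scale. Those of *Gpnmb* were 1.72 and 2.07, a difference of 0.35. By replicate number, the ratio in Pb divided by that in actB was 1.47, 1.31, and 1.33 for *Thbd* and 1.17, 1.39, and 1.21 for *Gpnmb*, so it was above 1 for all 3 numbers of both genes. The actB levels with DMSO, at or below 0.185 RPKM, lie under the added 0.25, which shortens the actB change more than the Pb change. With DMSO, the actB values rest on at most 17 reads per library.

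**Figure D3:**
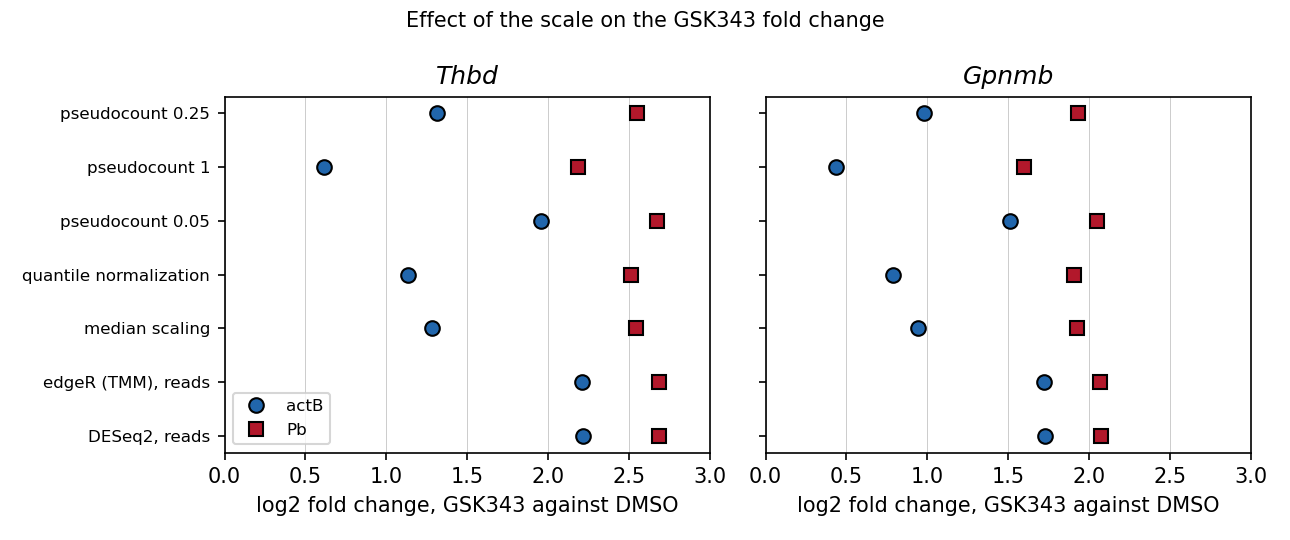
log2 fold change of *Thbd* (left) and *Gpnmb* (right) with GSK343 against DMSO in actB (blue circles) and Pb (red squares) under 7 settings. The Pb value is higher in every setting shown, and the gap for *Thbd* runs from 0.47 with DESeq2 to 1.57 with a pseudocount of 1.

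Without the inhibitor, both genes had higher levels in Pb than in actB. This is also given as a description with no test, since low levels with DMSO were part of the choice of the genes. Both also passed the filter on expression, 1 RPKM in at least 3 columns, through their 6 Pb columns, as no actB library reached 1 RPKM. With DMSO, the ratio of mean RPM in Pb to that in actB was 11.5 for *Thbd* (8.77 to 13.1 over the 3 replicate numbers) and 9.78 for *Gpnmb* (9.53 to 9.96). On log2(RPKM + 0.25), the difference was 2.34 (SE 0.169) for *Thbd* and 2.19 (SE 0.100) for *Gpnmb*, and the 3 Pb libraries lay above the 3 actB libraries for both. With GSK343 in both cell types, the Pb levels were 15.6 times the actB level for *Thbd* and 12.2 times for *Gpnmb*. Pb with DMSO still exceeded actB with GSK343, by 2.41 times for *Thbd* and 2.89 times for *Gpnmb*.

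The genes with the most similar profiles over the 14 libraries were found by Pearson's r of log2(RPKM + 0.25), given as a description. The 14 points share their groups and libraries. For *Thbd* these were *Pex13* (r = 0.984, 11298 genes compared), *Tmem9b* (0.978), *Oaf* (0.977), *Atp6v0d1* (0.976), and *Itgav* (0.976). *Pex13* encodes a peroxisomal import factor, *Atp6v0d1* a subunit of the vacuolar proton pump, and *Itgav* the integrin αv chain. Their range was much narrower than that of *Thbd*, as *Pex13* had mean levels of 6.51 RPKM in actB with DMSO, 7.39 in nB, and 11.4 in Pb with GSK343. *Oaf* was the exception, with 0.139 RPKM in actB with DMSO, 0.392 in nB, and 1.54 in Pb with GSK343. For *Gpnmb* these were *Lrrn3* (0.993), *Ccdc88a* (0.990), *Ggta1* (0.989), *Pcyt1a* (0.987), and *Sv2b* (0.985). *Lrrn3*, a leucine-rich repeat membrane protein gene, had mean levels of 0.314 RPKM in nB, 0.335 and 0.944 in actB with DMSO and GSK343, and 2.34 and 8.24 in Pb. *Ggta1* encodes the enzyme that makes the α-Gal epitope, and *Pcyt1a* the regulatory enzyme of phosphatidylcholine synthesis. *Oaf* and *Sv2b* had means of 0.564 and 0.514 RPKM in Pb with DMSO and lower means in nB and actB. They passed the filter on expression only through Pb with GSK343, so their likeness is not independent of that filter. *Thbd* and *Gpnmb* correlated with each other at r = 0.931, which placed *Gpnmb* at rank 35 for *Thbd* and *Thbd* at rank 165 for *Gpnmb*. Both were chosen for the same pattern in these libraries, so their likeness was in part set by the choice.

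The nearest neighbours of *Thbd* include its paralogue *Cd93*, which encodes another C-type lectin-like receptor of the same family and begins 35.4 kb away on the same strand. *Cd93* had 39.1, 32.6, and 33.1 RPKM in Pb with DMSO and 83.1, 72.1, and 73.5 with GSK343. It rose in Pb by 1.12 on the log2 scale (SE 0.116, adjusted p = 1.80e-04, limma). In actB it had 17.9, 20.5, and 15.5 RPKM with DMSO and 20.7, 25.8, and 21.4 with GSK343, a log2 difference of 0.33 (SE 0.116, adjusted p = 0.0926). Libraries did not overlap in either cell type. *Sstr4*, a somatostatin receptor gene whose start lies 12.8 kb from that of *Thbd*, was below the level required for testing. It had 3, 1, and 2 reads in Pb with DMSO and 12, 10, and 10 with GSK343, and 0 to 2 reads in every nB and actB library. *Foxa2*, 361 kb away, had a mean of at most 0.00740 RPKM in any group. *Nxt1*, 264 kb away, went from a mean of 24.8 to 29.0 RPKM in actB (adjusted p = 0.124, but 0.0261 when the replicate number was added as a block) and from 27.3 to 30.5 in Pb (adjusted p = 0.263). Of 4 other tested genes with a start within 1 Mb of *Thbd*, *Cd93* in Pb was the only one called.

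Upstream of *Gpnmb*, the neighbours *Svs1* and *Doxl2* had no reads in any library, which allows up to 3 reads in each. Downstream, *Malsu1*, a mitochondrial ribosome assembly gene 37.3 kb away, went from 17.6 to 18.4 RPKM in actB (adjusted p = 0.706) and from 16.6 to 16.6 in Pb (adjusted p = 0.966). *Igf2bp3*, an RNA-binding protein gene best known from fetal cells and tumours, begins 178 kb away on the opposite strand. It had 4.01, 4.10, and 3.34 RPKM in actB with DMSO and 7.16, 6.54, and 6.54 with GSK343, and 1.86, 1.80, and 1.5 in Pb with DMSO and 4.45, 4.45, and 4.17 with GSK343. *Igf2bp3* rose in both, by 0.79 on the log2 scale in actB (SE 0.0912, adjusted p = 4.78e-04) and by 1.23 in Pb (SE 0.0912, adjusted p = 2.60e-05, limma). With DMSO, all 3 of its Pb libraries lay below all 3 of its actB libraries, the opposite order to *Gpnmb*. Of 22 other tested genes within 1 Mb of *Gpnmb*, 4 were called higher and 0 lower in actB, beside 8.20% and 2.16% of all genes (*Tmem176a*, *Tmem176b*, *Igf2bp3*, and *Fam221a*), and 5 higher (these and *Ccdc126*) and 2 lower (*Gimap4* and *Gimap8*) in Pb, beside 7.90% and 5.0%. With so few genes, no local effect was tested.

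**Figure D4:**
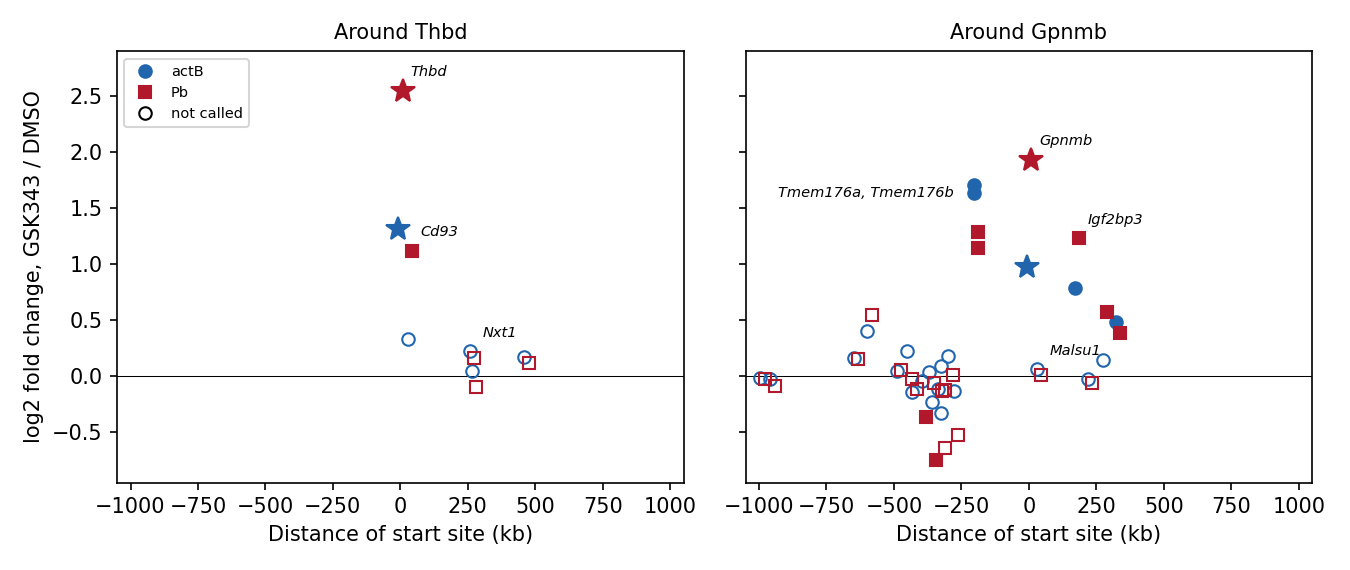
log2 fold change with GSK343 against DMSO of tested genes within 1 Mb of the start of *Thbd* (left) and *Gpnmb* (right), by distance of their start sites in kb, positive towards higher coordinates. Stars are *Thbd* and *Gpnmb*, filled symbols are other genes called in actB (blue) or Pb (red), and the symbols of each pair are set slightly apart. *Cd93* was called in Pb beside *Thbd*, while *Malsu1*, the nearest tested gene to *Gpnmb*, was called in neither.

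The proteins that act with thrombomodulin were mostly at low levels. Of 30 genes of the protein C pathway, coagulation, and fibrinolysis, 11 were tested. In actB, 2 of these were called higher and 0 lower, with a median log2 change of 0.16 against 0.03 for all genes, and in Pb 3 were called higher and 0 lower, with a median of 0.16 against 0.00314. Over all genes, 8.20% were called higher and 2.16% lower in actB, and 7.90% and 5.0% in Pb. *Procr*, the endothelial protein C receptor gene, and *Pros1*, the gene of the protein C cofactor protein S, were not tested. *Pros1* had 3, 10, and 5 reads in actB with DMSO and 18, 15, and 14 with GSK343, and 10, 12, and 6 in Pb with DMSO and 26, 23, and 16 with GSK343. The *Pros1* libraries with GSK343 thus lay above those with DMSO in both cell types. *Procr* had 1, 2, and 2 reads in actB with DMSO and 2, 11, and 1 with GSK343. In Pb it had 1, 2, and 3 reads with DMSO and 6, 2, and 3 with GSK343. The *Procr* libraries of the treatments thus overlapped in both cell types. With no filter on expression, 3 genes of the list were called in actB and 5 in Pb. *Plaur*, the urokinase receptor gene, rose in actB by 1.37 on the log2 scale (SE 0.145, adjusted p = 2.83e-04) and in Pb by 0.91 (SE 0.145, adjusted p = 0.00212). Its levels were 1.35 and 3.89 RPKM in actB with DMSO and GSK343, 0.410 and 0.980 in Pb, and 73.2 in nB. *Axl*, a receptor tyrosine kinase gene for the protein S relative GAS6, rose in actB by 1.18 (SE 0.257, adjusted p = 0.0138), from 0.380 to 1.18 RPKM, and in Pb by 1.40 (SE 0.257, adjusted p = 0.00480), from 2.24 to 6.17 RPKM. *Plau*, the gene of urokinase itself, rose in Pb by 1.49 (SE 0.296, adjusted p = 0.00723) and in actB had a log2 difference of 0.53 (adjusted p = 0.30, but 0.0386 with the replicate block). *S100a10*, the most abundant gene of the list, went from 128 to 151 RPKM in actB (adjusted p = 0.225) and from 99.0 to 113 in Pb (adjusted p = 0.292). With the block, *F2rl1*, a protease-activated receptor gene, was called lower in Pb (log2 change -0.42, adjusted p = 0.0167, against 0.245 without it).

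*Cd93* was the only one of 3 related group 14 C-type lectin genes that was tested, with the values given above. Among 10 genes that control or shed thrombomodulin, 9 were tested and 1 was called higher and 0 lower in each cell type, a share near that of all genes called higher (8.20% in actB and 7.90% in Pb), with a median log2 change of -0.05 in actB and 0.01 in Pb. The called gene was *Rxra*, a retinoid X receptor gene, which rose by 1.01 in both actB (SE 0.172, adjusted p = 0.00363) and Pb (SE 0.172, adjusted p = 0.00318), from 0.364 to 1.0 RPKM and from 0.384 to 1.02 RPKM. *Klf2*, an activator of *Thbd* in endothelium, went from 33.2 to 43.3 RPKM in actB (adjusted p = 0.209) and from 3.33 to 3.26 in Pb (adjusted p = 0.989). *Ets1* had log2 differences of -0.07 and 0.07. With the replicate block, *Rara*, a retinoic acid receptor gene, was called lower in actB (log2 change -0.56, adjusted p = 0.0233, against 0.131 without it).

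Partners of GPNMB and the enzymes that shed it were more widely expressed. Of 12 listed genes 10 were tested. In actB, 3 were called higher and 0 lower (median log2 change 0.17 against 0.03 for all genes), beside 8.20% and 2.16% of all genes. In Pb, 6 were called higher and 0 lower (median 0.37 against 0.00314), beside 7.90% and 5.0%. *Itga5*, the integrin α5 chain gene, rose by 1.03 in actB (SE 0.198, adjusted p = 0.00696), from 0.151 to 0.577 RPKM. In Pb it rose by 0.89 (SE 0.198, adjusted p = 0.0124), from 0.899 to 1.86 RPKM. It passed the filter on expression only through its Pb columns with GSK343 (1.75, 2.20, and 1.65 RPKM), so its call in Pb is not independent of that filter. No actB library reached 1 RPKM. *Sdc4*, the gene of a proteoglycan that binds GPNMB, rose from 58.8 to 77.6 RPKM in actB (adjusted p = 0.00218) and from 60.7 to 81.7 in Pb (adjusted p = 0.00107). *Itgb1* rose in actB (log2 change 0.22, adjusted p = 0.0457) and in Pb (0.35, adjusted p = 0.00416). *Cd44* rose from 67.6 to 93.1 RPKM in Pb (adjusted p = 0.00375) and had a log2 difference of 0.16 in actB (adjusted p = 0.240). *Itgav* rose in Pb (0.39, adjusted p = 0.00466), as did the sheddase gene *Adam10* (0.19, adjusted p = 0.0411).

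Of 30 MiT/TFE factor and lysosomal genes, 27 were tested. In actB, 3 were called higher and 0 lower (median log2 change 0.05), beside 8.20% and 2.16% of all genes. In Pb, 7 were called higher and 0 lower (median 0.14), beside 7.90% and 5.0%. With the replicate block the counts of the list became 5 higher and 3 lower in actB and 13 higher and 2 lower in Pb. In that fit, 14.7% and 6.27% of all genes were called higher and lower in actB and 13.6% and 10.7% in Pb. *Tfeb*, a master regulator of lysosome genes, rose in actB from 18.3 to 22.9 RPKM (adjusted p = 0.0151) and had 8.61 and 8.93 RPKM in Pb (adjusted p = 0.707). *Hexa*, a lysosomal hexosaminidase subunit gene, rose from 22.6 to 31.5 RPKM in actB (adjusted p = 0.00846) and from 28.5 to 47.0 in Pb (adjusted p = 6.62e-04). *Cd63*, a tetraspanin gene of late endosomes, rose in Pb from 0.619 to 1.48 RPKM (adjusted p = 0.00787). *Lipa*, the acid lipase gene, and *Ctsd*, the cathepsin D gene, rose in Pb by 0.34 (adjusted p = 8.76e-04) and 0.32 (adjusted p = 0.0408). *Ctsk*, the cathepsin K gene, rose in actB by 0.59 (adjusted p = 0.0433). The abundant *Ctsz* was not called, with log2 differences of -0.14 in actB (adjusted p = 0.194, but 0.0288 with the block) and -0.07 in Pb, while *Psap* rose in Pb by 0.28 (adjusted p = 0.00615).

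The last list held 22 genes that accompany *Gpnmb* in lipid-loaded macrophages. Of 16 tested, 7 were called higher and 0 lower in actB (median log2 change 0.45) and 8 higher and 0 lower in Pb (median 0.34). *Spp1*, the osteopontin gene, rose from 2.64 to 4.69 RPKM in actB (log2 change 0.78, SE 0.129, adjusted p = 0.00325) and from 3.98 to 11.4 in Pb (1.46, SE 0.129, adjusted p = 1.09e-04). The cholesterol exporter genes *Abca1* and *Abcg1* rose in both cell types, by 1.06 (adjusted p = 0.0328) and 0.92 (adjusted p = 0.00339) in actB and by 1.18 (adjusted p = 0.0173) and 0.85 (adjusted p = 0.00435) in Pb. *Lgals3*, the galectin-3 gene, rose by 0.79 in actB (adjusted p = 0.0168) and 0.84 in Pb (adjusted p = 0.0109). *Cd36*, a scavenger receptor gene and one of the most abundant of the list, had log2 differences of -0.23 (adjusted p = 0.505) and -0.07 (adjusted p = 0.869). Some genes stand in more than 1 list. Over the 71 distinct genes tested of 103, 15 (21.1%) were called higher in actB and 23 (32.4%) in Pb, and 0 were called lower in either, beside 8.20% and 7.90% of all genes. At an unadjusted p under 0.05 in limma, 5 were lower in actB and 2 in Pb. By edgeR, 13 were called higher and 1 lower in actB and 22 higher and 0 lower in Pb, and by DESeq2, 14 and 2 in actB and 24 and 1 in Pb. The lists were chosen with earlier results of these libraries known.

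**Figure D5:**
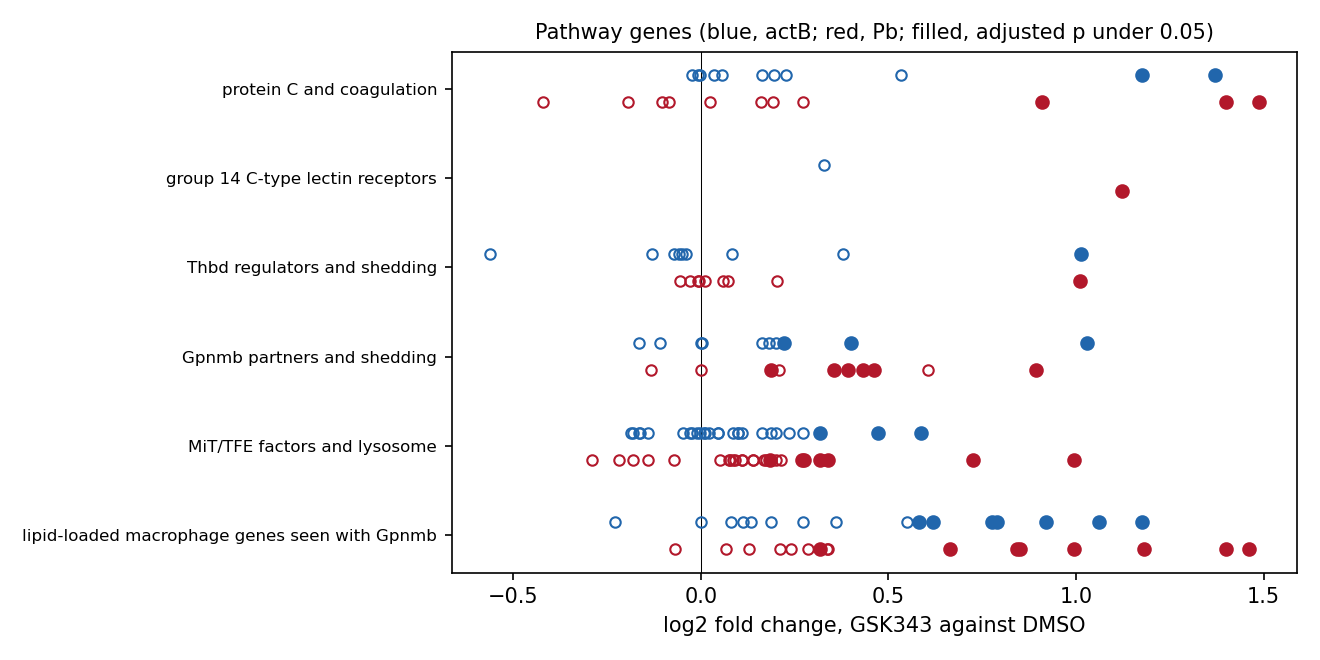
log2 fold change on the log2(RPKM + 0.25) scale of the tested genes of 6 pathway lists with GSK343 against DMSO, in actB (blue) and Pb (red), with filled points for genes called by limma. All called genes lie to the right of 0, and the median log2 change of the list of lipid-loaded macrophage genes was 0.45 in actB and 0.34 in Pb.

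Markers of other cells were read in the same fits. Over all genes, 8.20% were called higher and 2.16% lower in actB, and 7.90% and 5.0% in Pb. With the replicate block, these shares were 14.7% and 6.27% in actB and 13.6% and 10.7% in Pb. The summed level of the 20 macrophage and monocyte markers was 63.4 to 103 RPKM in actB with DMSO and 72.7 to 92.9 with GSK343, and 126 to 370 in Pb with DMSO and 115 to 256 with GSK343. Most of each sum came from *Mpeg1* in actB (mean 62.3 RPKM with DMSO and 58.5 with GSK343) and from *Ly6c2* in Pb (192 and 153). The sums thus say little of the other markers. Of 16 tested, *Adgre1* and *Itgam* rose in actB, from 0.147 to 0.437 RPKM (adjusted p = 0.0156) and from 4.27 to 9.95 (adjusted p = 0.00376), while none were called in Pb by limma, edgeR, or DESeq2 (1 was lower at an unadjusted limma p under 0.05). With the replicate block, 4 were called higher in actB, also *Mrc1* (adjusted p = 0.045) and *Ccr2* (adjusted p = 0.00764), and 2 lower in Pb, *Cd68* (adjusted p = 0.0378) and *Mpeg1* (adjusted p = 0.0452). edgeR called 3 higher in actB and DESeq2 4. *C1qa*, *C1qc*, and *Vsig4* had no reads in Pb with DMSO or with GSK343. Of 9 dendritic cell markers tested, *Itgax* was called higher in actB (0.0340 to 0.192 RPKM, adjusted p = 0.0153) and none in Pb, where 1 was higher at an unadjusted p under 0.05 and edgeR and DESeq2 called 0. With the block, *Batf3* was also called higher in actB (2.97 to 5.94 RPKM, adjusted p = 0.0262), and *Flt3*, the most abundant marker of the list, lower (47.2 to 28.0 RPKM, adjusted p = 0.0254). The part of these genes in the *Thbd* and *Gpnmb* levels was not tested. Of the 7 plasmablast markers, 2 were called higher and 1 lower in actB, and 1 higher and 1 lower in Pb. With the block, 4 were called higher and 1 lower in actB, also *Prdm1* (adjusted p = 0.0253) and *Xbp1* (adjusted p = 0.00402). In Pb, 2 were then called higher and 1 lower, also *Xbp1* (adjusted p = 0.0477). *Sdc1*, which encodes CD138, rose with GSK343 from 0.665 to 0.965 RPKM in actB (adjusted p = 0.0422) and from 29.7 to 55.3 in Pb (adjusted p = 5.75e-04), and *Jchain* rose in actB from 177 to 231 (adjusted p = 0.0277). *Slamf7* fell in actB from 25.3 to 18.8 RPKM (adjusted p = 0.00396), and *Irf4* fell in Pb from 372 to 313 (adjusted p = 0.0225). Of the 7 B cell markers, 2 were called lower in Pb and 0 in actB, where 0 also passed at an unadjusted p under 0.05 in limma, by edgeR, or by DESeq2. With the block, 5 were called lower in Pb and 0 in actB. *Pax5* fell in Pb from 29.1 to 13.8 RPKM (adjusted p = 0.00220) and *Ms4a1* from 60.9 to 39.8 (adjusted p = 0.00369). Whether the makeup of the sorted cells accounts for part of the *Thbd* and *Gpnmb* values was not tested.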

How the data were processed

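Libraries of polyadenylated RNA were made with 500 ng as input and sequenced with paired ends of 50 bp. The authors mapped the reads to mm9 with TopHat2, counted those overlapping exons of each Entrez gene, and deposited RPM per library in 15 columns, although the table is named for RPKM. The reads behind these RPM were recovered here, since 100% of values came out whole (within 0.0232 reads). Division of RPM by the deposited length in kilobases gave RPKM. The 92 genes with no symbol, at most 0.0905% of reads, were left out.

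Genes that reached 1 RPKM in 3 or more columns, 11299 in all, entered a group model in limma 3.58.1 (R 4.3.3, eBayes with trend) on log2(RPKM + 0.25). The 14 libraries included the mean of nB replicates 1 and 2. All p-values are two-sided and Benjamini-Hochberg adjusted over the genes tested, with a threshold of 0.05. A fold change on this scale understates the change of low genes. The genes, lists, and tests were chosen with earlier results of these data known. Genes named are *Thbd* and *Gpnmb*, the 5 most correlated genes of each, the 2 nearest genes on each side, and per list the called genes (at most 4 per cell type) and the 2 most abundant. Other called genes within 1 Mb, *Procr*, *Pros1*, genes called with the block alone, and markers were named after their values were seen.

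Replicate numbers pair the cultured libraries, as deviations from group means correlated at 0.158 to 0.713 for the same number (18 pairs) and at -0.603 to 0.370 for different numbers (36 pairs). The labels do not say that replicates are separate mice, so p-values measure the spread between these libraries. Strand use in counting is not stated. edgeR 4.0.16 and DESeq2 1.42.0 were run on the recovered reads as alternatives. The scripts were tested on simulated data. The limit of 3 reads given for a count of 0 covers counting error only.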

Additional observations from a re-analysis of the deposited data

How the results depend on the processing

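The GSK343 changes of *Thbd* and *Gpnmb* had the same direction under all 14 alternative settings and with each of 12 cultured libraries left out. Nothing is read from this, as these contrasts chose the genes. All libraries with GSK343 lay above those with DMSO, so leaving 1 out could not reverse the direction. The size of the changes, above all in actB, moved with the scale. For *Thbd*, the log2 changes in actB and Pb and their difference were 0.61, 2.19, and 1.57 with a pseudocount of 1, and those of *Gpnmb* 0.43, 1.60, and 1.16. With a pseudocount of 0.05, *Thbd* in actB was 1.96 and the difference 0.71, and *Gpnmb* was 1.51 in actB, 2.05 in Pb, and 0.54 for the difference. Quantile normalization gave *Gpnmb* 0.78 in actB and a difference of 1.12. On the recovered reads, *Thbd* in actB and the difference were 2.21 and 0.48 (edgeR, TMM), 2.20 and 0.48 (edgeR, RLE), and 2.21 and 0.47 (DESeq2), and *Gpnmb* in actB, Pb, and the difference were 1.72, 2.07, and 0.35 (TMM), 1.72, 2.07, and 0.35 (RLE), and 1.73, 2.07, and 0.34 (DESeq2). The log2 difference of Pb with DMSO from actB with DMSO ran from 1.29 to 3.63 for *Thbd* and from 1.19 to 3.41 for *Gpnmb* over these settings.

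Genes called over the whole table numbered 1170 (actB) and 1458 (Pb). They became 2374 and 2751 under the replicate block, and 386 in actB with the compared groups alone. With 1 library left out the counts ran from 608 to 1363 in actB, lowest without replicate 1 of actB with DMSO, and from 690 to 1681 in Pb, lowest without replicate 3 of Pb with GSK343. Counts over 1.5 times smaller also came without replicate 3 of actB with DMSO (646), replicates 1 and 3 of actB with GSK343 (708 and 627), replicates 1 and 3 of Pb with DMSO (819 and 921), and replicate 1 of Pb with GSK343 (741). The called lipid-loaded macrophage genes in actB then fell to 3 of 16 without replicate 1 of actB with DMSO, and in Pb to 5 without replicate 3 of Pb with GSK343. Those of MiT/TFE factors and lysosome in actB fell to 1 without the same library, as did the protein C and coagulation genes (from 2). GPNMB partners in Pb fell to 4 without replicate 3 of Pb with DMSO. *Cd93* was called in actB without replicate 2 of actB with DMSO, and 2 *Thbd* regulators were called in actB without replicate 2 of actB with GSK343. With the compared groups alone, 3 lipid-loaded macrophage genes, 1 lysosomal gene, and 1 GPNMB partner were called in actB. Leaving replicate 2 out of every cultured group, chosen after seeing the data, gave 12 lysosomal genes in Pb and 5 GPNMB partners in actB. The cause of these changes was not tested.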
